A study of Mus musculus with 24 samples.

Results

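The ATF4 stress response genes are Atf4, which encodes the transcription factor at the centre of the integrated stress response, and 9 genes known as its partners or targets, namely Atf3, Ddit3, Trib3, Chac1, Asns, Psat1, Phgdh, Shmt2 and Mthfd2. They were taken by symbol from the table of TPM values (a transcript level scaled for transcript length and library size) of the whole series, where they make up 10 of 25239 genes. All 10 passed the filter on low values, which asked for 3 or more libraries at 1 TPM or higher and kept 14104 genes. Together they held between 0.110% and 0.415% of a library's TPM, and single members ranged from 4.97 TPM for Trib3 to 1096 TPM for Atf4.

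RNA was sequenced from 6 mouse cell lines, each derived from an individual lung tumor of the RP XTR R2 model of small cell lung cancer (SCLC), so that each line stands for 1 tumor. All lines were Trp53 XTR/XTR and Rosa26 FlpO-ER and also carried Rbl2 flox/flox with Rb1 flox/flox, and tumors were initiated in the lung with Ad:CMV-Cre, a virus whose promoter is not restricted to one cell type. Cre deletes floxed parts of Rb1 and Rbl2 and p53 is off until it is restored, so the Control libraries carry these deletions too. Treatment of the cells with 4-hydroxytamoxifen (4-OHT) activates FlpO and restores p53. Type D lines (4711-1, 4711-18 and 4716-11) lose viability after p53 restoration, whereas Type V lines (4711-11, 4716-10 and 4716-14) remain viable. Every line gave 1 library for each of 4 treatments at 72 h, namely Control (vehicle), Control + CsA (cyclosporin A, an inhibitor of cyclophilins and, through them, of calcineurin), Restored and Restored + CsA. This gives 8 groups of 3 libraries and 24 libraries in all. Values of the Type D lines are given in the order 4711-1, 4711-18 and 4716-11, and those of the Type V lines in the order 4711-11, 4716-10 and 4716-14.

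Trp53 was at 10.5 to 15.3 TPM in the 12 libraries without restoration and at 182 to 253 TPM in the 12 with it, which matches the labels. Cdkn1a, its best known target, was at 37.5 to 145 TPM without and 1068 to 2540 TPM with restoration. Rb1 (7.36 to 68.8 TPM) and Rbl2 (4.49 to 20.6 TPM) were listed in all libraries, but a level per gene does not check the loss of some exons. Several defining markers of SCLC and its subtypes were at or near 0, with Chga at 0 in all 24 libraries and Calca, Neurod1 and Pou2f3 under 1 TPM in every library, whereas Yap1 lay between 93.5 and 571 TPM. Of 4 leukocyte markers, Cd3e was at 0 and Ptprc at most 0.154 TPM, while Cd68 was at 5.60 to 11.5 TPM without and 16.1 to 55.3 TPM with restoration, and the list summed to 6.35 to 12.8 TPM without restoration and 16.2 to 56.0 TPM with it. The summed level of 4 fibroblast markers was 0.283 to 1.93 TPM in Type D libraries and 17.9 to 521 TPM in Type V libraries. The libraries had 11850 to 12650 genes at a TPM of at least 1. TPM keeps no sequencing depth, so the depth behind each value is unknown, and no counting interval can be given.

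In the integrated stress response, one of several kinases senses a stress (amino acid shortage, unfolded protein in the endoplasmic reticulum, double-stranded RNA, or heme deficiency and mitochondrial stress) and phosphorylates the translation initiation factor eIF2alpha. General translation then falls while Atf4 mRNA is translated more, and ATF4 protein, a bZIP factor, switches on genes for amino acid synthesis and uptake, tRNA charging and, under lasting stress, cell death. Because much of this control lies in translation, mRNA levels of Atf4 itself report only part of it, and neither ATF4 protein nor eIF2alpha phosphorylation was measured in the files used here.

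ATF4 binds DNA with C/EBP partners at the C/EBP-ATF response element, written TGATGNAAN. The 250 bases before the RefSeq start of each member were searched for these 9 letters on both strands (build GRCm38.p6; all 10 members matched a window by symbol, Psat1 with 2 windows). The letters were found for 3 members, Atf3, Chac1 and Asns, and not for the other 7. Of all 32851 RefSeq windows of this length, 3.44% held them. The 3 windows are shown because they are those that hold the letters, and they are written from 5′ to 3′ on the gene's strand with the matched letters in capitals.
Atf3, chr1:191183334-191183583, minus strand: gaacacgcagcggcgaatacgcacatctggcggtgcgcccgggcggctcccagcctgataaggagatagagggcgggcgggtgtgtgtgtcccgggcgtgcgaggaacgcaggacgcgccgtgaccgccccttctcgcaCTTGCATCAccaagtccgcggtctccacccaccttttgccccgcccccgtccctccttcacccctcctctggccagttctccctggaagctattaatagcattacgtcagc
Chac1, chr2:119350992-119351241, plus strand: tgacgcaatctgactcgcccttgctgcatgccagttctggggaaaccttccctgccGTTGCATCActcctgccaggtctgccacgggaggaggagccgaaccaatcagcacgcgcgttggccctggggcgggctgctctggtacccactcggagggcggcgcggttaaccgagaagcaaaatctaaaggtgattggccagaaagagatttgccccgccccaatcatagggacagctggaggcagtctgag
Asns, chr6:7693210-7693459, minus strand: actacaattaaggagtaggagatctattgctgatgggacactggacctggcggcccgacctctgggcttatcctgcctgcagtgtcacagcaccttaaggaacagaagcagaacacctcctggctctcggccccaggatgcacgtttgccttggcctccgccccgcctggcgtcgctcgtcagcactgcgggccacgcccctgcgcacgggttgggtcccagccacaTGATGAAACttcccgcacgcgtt
The match began 111 bases before the start in Atf3 and 194 bases before it in Chac1, both as the reverse complement of the motif, and 23 bases before it in Asns, on the gene's strand. These matches describe the letters in the windows and do not show that a factor was bound there. Elements outside the windows were not searched.

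**Figure D1:**
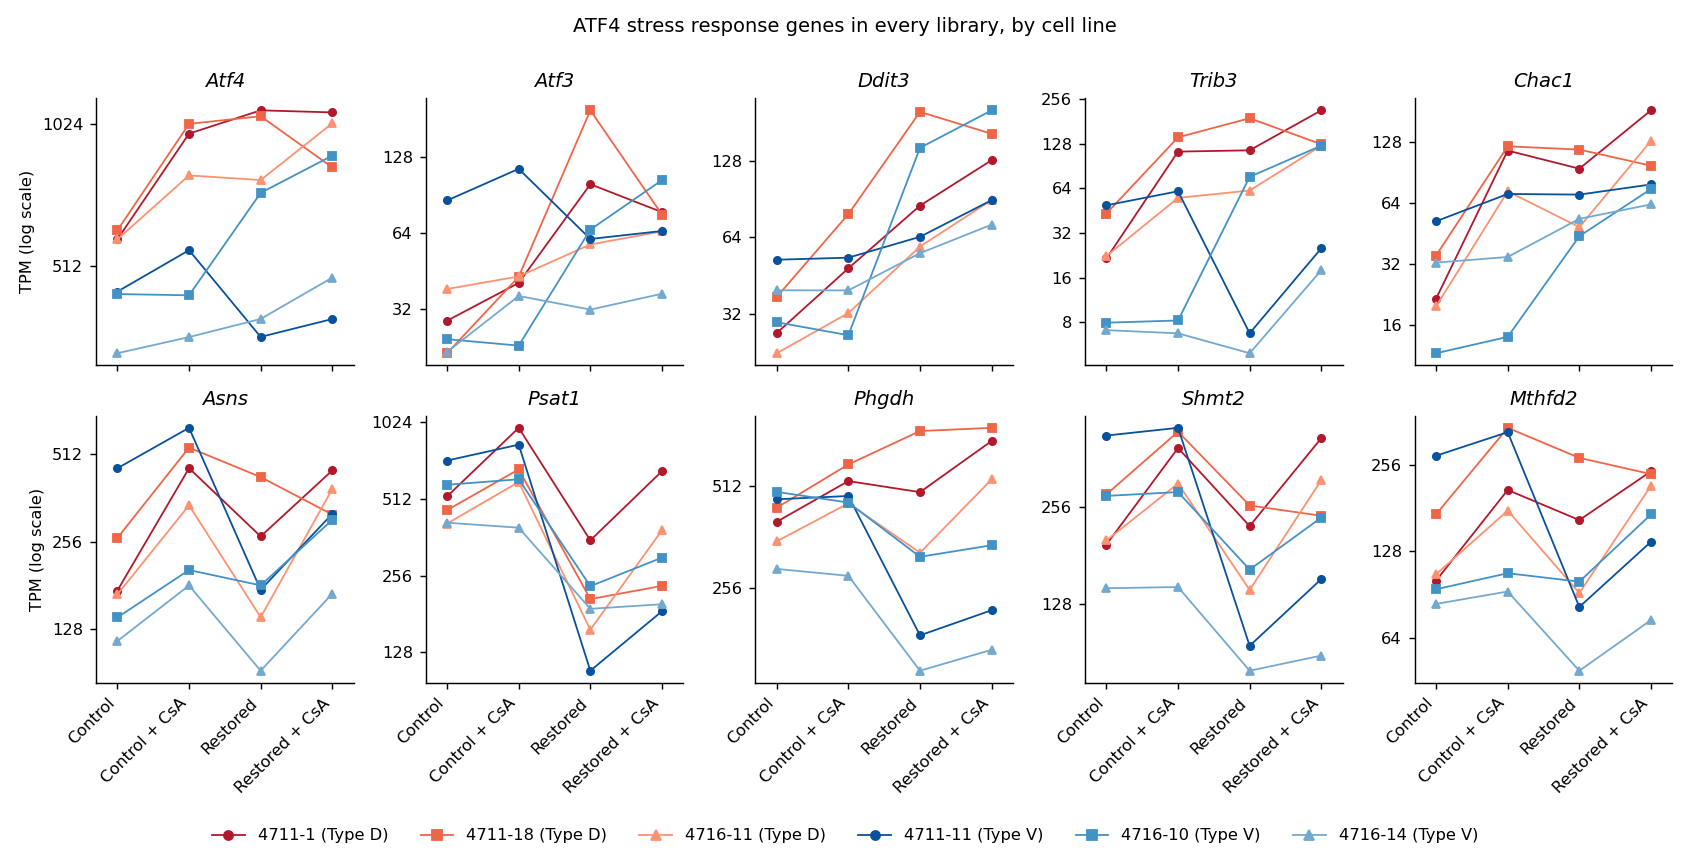
Level of each of the 10 genes in TPM (vertical axes, log scale, a different range in each panel) in the 4 treatments (horizontal axes), with 1 point per library and a line joining the 4 libraries of a cell line (red shades, Type D; blue shades, Type V). In the Type D lines every gene lies higher in Control + CsA than in Control, and Psat1 in each of the 6 lines lies lower in Restored than in Control.

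The first comparison asks what CsA did to these genes with p53 off. In each of the 3 Type D lines all 10 genes were higher in Control + CsA than in Control, by 0.40 to 2.0 on the log2 scale as the mean of 3 lines, led by Chac1, Trib3 and Asns. The mean change in Type V lines lay between -0.05 and 0.54, and Asns had the largest. No member was called (adjusted p under 0.05 in limma and a change of at least 1 on the log2 scale) in either type or over the 6 lines, and neither was any other gene (0% of 14104 genes in all 3 comparisons). At an unadjusted p under 0.05 stood 114 genes in Type D, 54 in Type V and 193 over the 6 lines.

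Counts by line set the members beside the other genes. Higher in 3 of 3 Type D lines were 10 of 10 members, against 13.7% of all tested genes. For 9 members, all but Ddit3, every Type D Control + CsA library lay above every Type D Control library, against 2.13% of tested genes. Higher in 3 of 3 Type V lines were 4 members (16.4% of tested genes), and for 0 members did the Type V groups separate in this way (1.12%). Over the 6 lines, Chac1, Asns, Shmt2 and Mthfd2 were higher in 6 of 6 (5.44%). At an unadjusted p under 0.05 stood 3 members in Type D lines (0.808% of tested genes) and 2 over the 6 lines (1.37%). With cell line as a block these counts were 8 members in Type D (6.76%) and 4 over the 6 lines (10.2%), and still 0 members were called (0.0142% of genes in both comparisons). The median change of the members in Type D lines was 0.77, against -0.03 over all tested genes, and 0.11 against -0.01 in Type V lines. Since these are bulk libraries, a change in the share of cells with a given level and a change of the level per cell cannot be told apart.

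**Figure D2:**
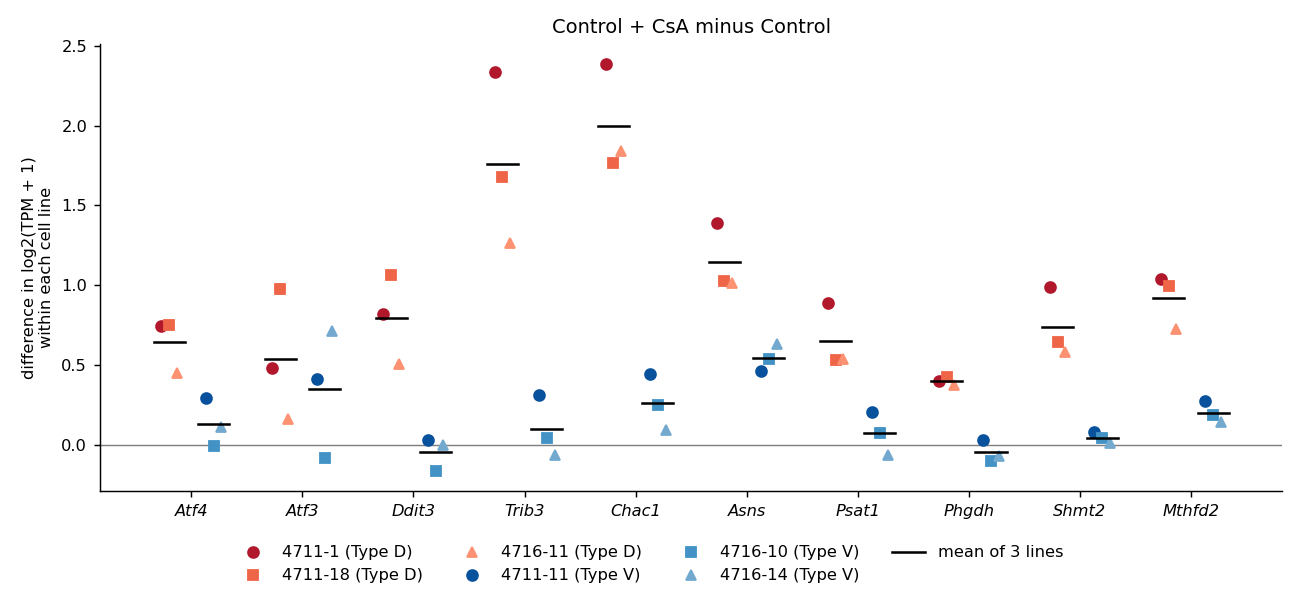
Difference in log2(TPM + 1) between Control + CsA and Control (vertical axis) for each gene (horizontal axis), with 1 point per cell line (red shades, Type D; blue shades, Type V) and a black bar at the mean of the 3 lines of a type. All Type D points lie above 0, from 0.16 for Atf3 in 4716-11 to 2.39 for Chac1 in 4711-1, while Type V points lie between -0.16 and 0.71.

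Atf4 measured 584, 610.4 and 584 TPM in the Type D lines as Control, and 978, 1026 and 798 TPM with CsA. The groups did not overlap, and the lines stood above their own Control by 1.37-fold to 1.68-fold. The log2 difference was 0.65 (SE 0.27, adjusted p = 1 in limma, and 0.495 with cell line as a block). The Type V Controls held 453, 447 and 335 TPM of Atf4 and the CsA libraries 554, 445 and 363 TPM, so that 2 lines were higher, 1 was near its Control and the groups overlapped.

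Atf3 and Ddit3 encode bZIP factors that act downstream of ATF4, Ddit3 (CHOP) being the best known death-associated one. Type D libraries held 28.9, 21.5 and 38.5 TPM of Atf3 in Control and 40.7, 43.1 and 43.2 TPM with CsA, a difference of 0.54 (SE 0.56). For Ddit3 they held 26.9, 37.3 and 22.4 TPM in Control and 48.3, 79.0 and 32.3 TPM with CsA, a difference of 0.80 (SE 0.47). Both were higher in 3 of 3 lines, but the Ddit3 groups overlapped, as the CsA library of 4716-11 lay under the Control library of 4711-18. Among Type V lines Ddit3 measured 52.3, 29.7 and 39.6 TPM as Control and 53.2, 26.4 and 39.6 TPM with CsA, log2 differences of -0.16 to 0.03. Atf3 differed more among Type V lines, with 86.4, 24.4 and 21.7 TPM in Control and 115, 23.0 and 36.2 TPM with CsA.

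The largest changes belonged to Chac1, which encodes an enzyme that breaks down glutathione, and Trib3, a pseudokinase that restrains ATF4 and CHOP activity. Chac1 measured 21.5, 35.2 and 19.7 TPM in the Type D lines as Control, and 117, 122 and 73.2 TPM with CsA, which is 5.42-fold, 3.48-fold and 3.72-fold higher. The difference was 2.0 on the log2 scale (SE 0.51, adjusted p = 1 in limma, 0.0911 with cell line as a block), and the groups were far apart. Chac1 in Type V lines measured 52.0, 11.6 and 32.5 TPM as Control and 71.0, 13.9 and 34.6 TPM with CsA, higher in each line by 1.07-fold to 1.37-fold. Trib3 went from 21.6, 43.3 and 22.4 TPM to 113, 141 and 55.2 TPM in Type D lines, a difference of 1.76 (SE 0.96). Trib3 in the Type V lines measured 49.2, 7.98 and 7.10 TPM as Control and 61.1, 8.25 and 6.76 TPM with CsA. The Type V lines thus started from Trib3 levels that differed several-fold and stayed near them.

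Asns, which makes asparagine, measured 174, 263 and 169 TPM in the Type D lines as Control, and 457, 538 and 341 TPM with CsA, 2.02-fold to 2.63-fold higher (1.14 on the log2 scale, SE 0.51). Type V lines held Asns at 457, 141 and 117 TPM as Control and at 629, 204 and 181 TPM with CsA, 1.38-fold, 1.46-fold and 1.55-fold higher (0.54, SE 0.51). Because the Type V Control libraries themselves spanned 117 to 457 TPM, the Type V groups overlapped although each line was higher.

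Phgdh and Psat1 encode the first enzymes of serine synthesis, and Shmt2 and Mthfd2 carry serine-derived one-carbon units in mitochondria. Mthfd2 measured 101, 172 and 107 TPM in the Type D lines as Control, and 209, 344 and 177 TPM with CsA, a difference of 0.92 (SE 0.51). Shmt2 went from 195, 279 and 201 TPM to 389, 437 and 302 TPM (0.74, SE 0.44), and Psat1 from 523, 462 and 409 TPM to 970.2, 667 and 595 TPM (0.65, SE 0.38). Phgdh had the smallest difference, from 401, 441 and 351 TPM to 529, 592 and 454 TPM (0.40, SE 0.33), with nearly the same change in the 3 lines (1.29-fold to 1.34-fold). All 4 groups of CsA libraries lay above their Control libraries. Across Type V lines the mean differences of these 4 enzymes were between -0.05 for Phgdh and 0.20 for Mthfd2.

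Whether Type D and Type V lines differed in their response to CsA was tested as the difference between the 2 log2 changes. The Type D change was larger for all 10 members, but none was called, nor was any tested gene (0%; 0 with the block). For Chac1 the difference of responses was 1.74, with a 95% interval from 0.23 to 3.25 (adjusted p = 1). It was 1.66 for Trib3 (-1.18 to 4.50) and between 0.19 and 0.84 for the other 8 members, with intervals that included 0. These intervals come from the fit without cell line as a block, so they do not use the pairing of libraries by line. With the block the SE was smaller, at 0.51 instead of 0.72 for Chac1 and 0.22 instead of 0.46 for Phgdh. Chac1 was still the only member with an unadjusted p under 0.05 (0.0037 in limma with the block).

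In Control, 0 members were called between Type D and Type V lines, against 8.83% of tested genes. The largest differences in size, Type D minus Type V on the log2 scale, were 0.89 for Trib3 (95% interval -1.12 to 2.90) and 0.54 for Atf4 (-0.04 to 1.11, adjusted p = 0.213 in limma). Atf4 was at 584 to 610.4 TPM in the Type D Controls and 335 to 453 TPM in the Type V ones. Over all tested genes the median difference in this comparison was -0.12, and it moved to -0.02 when TPM values were rescaled by the median ratio.

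The second comparison asks what p53 restoration did to these genes without CsA. In Type D lines Atf3, Ddit3 and Chac1 rose, by 1.82, 1.79 and 1.69 on the log2 scale, while Psat1 was lower. Psat1 fell by 1.72 in Type V lines. Restoration shares its Control libraries with the comparison of CsA alone, so the changes of the 2 comparisons are not independent.

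Called in Type D lines were 3 of 10 members, all higher, against 6.93% of tested genes called in either direction. For Type V lines 1 member was called, lower, against 5.29%. With cell line as a block 4 members were called in Type D (Psat1 added; 11.2% of genes) and 3 in Type V (Ddit3 and Shmt2 added; 8.66%). Ddit3 and Chac1 were higher in 6 of 6 lines (23.8% of tested genes were) and Psat1 was lower in 6 of 6 (16.1%). For 5 members, Atf4, Atf3, Ddit3, Trib3 and Chac1, every Type D Restored library lay above every Type D Control library (20% of tested genes). For 1 member, Psat1, every Type V Restored library lay under every Type V Control library (10.3%). Of 10 members, 2 higher and 1 lower in 6 of 6 lines are shares near those of all genes. The members' median was 0.54 in Type D lines and -0.23 in Type V lines, against 0.07 and 0.05 over all tested genes. The summed leukocyte markers moved with restoration too, from 8.84 to 11.1 TPM in Control to 30.4 to 56.0 TPM in Restored libraries of Type D lines and from 6.96 to 10.2 TPM to 16.2 to 31.8 TPM in Type V lines, nearly all of it Cd68 with Ptprc and Cd3e at or near 0, and their part in the members' changes was not tested.

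**Figure D3:**
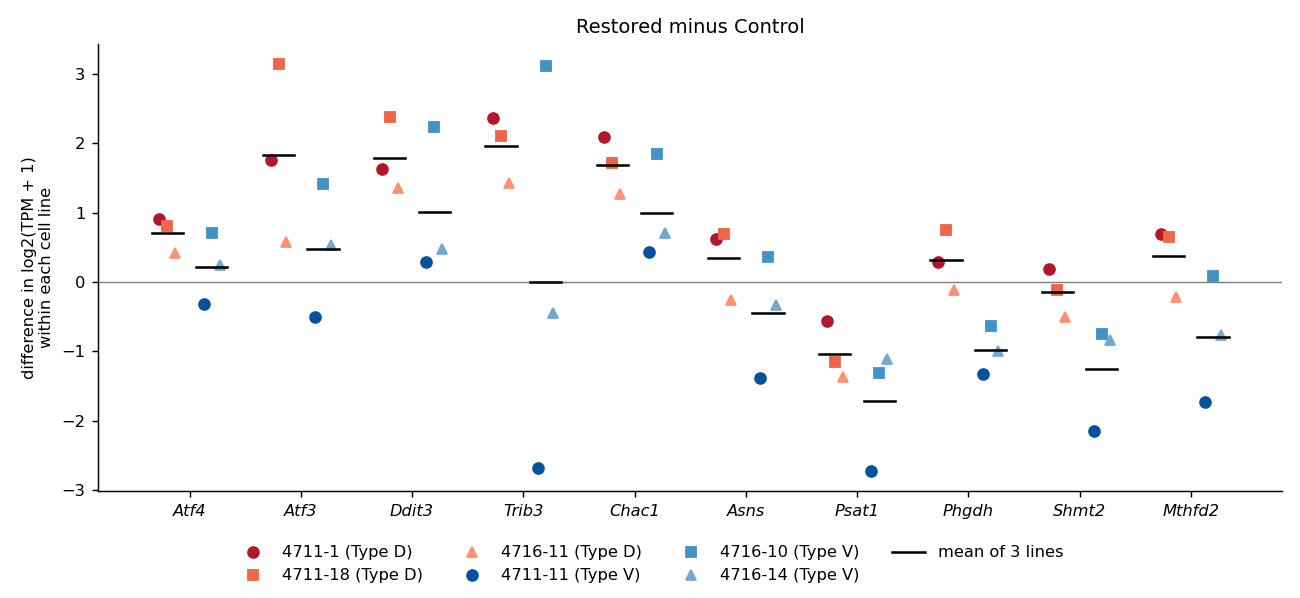
Difference in log2(TPM + 1) between Restored and Control (vertical axis) for each gene (horizontal axis), with 1 point per cell line (red shades, Type D; blue shades, Type V) and a black bar at the mean of the 3 lines of a type. Trib3 spans from -2.69 in 4711-11 to 3.11 in 4716-10 among Type V lines, and all 6 Psat1 points lie under 0.

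Atf4 measured 1096, 1065 and 780 TPM in the Type D lines once restored, above the Control values of 584 to 610.4 TPM in each line. The difference was 0.71 (SE 0.27, adjusted p = 0.103 in limma). With the block its adjusted p was 0.0144, but the change stayed under 1 on the log2 scale. Type V Restored libraries held 363, 733 and 396 TPM, lower than Control in 4711-11, higher in 4716-10 and 4716-14. All Type D Restored libraries lay above all Type V ones for Atf4 and for 1 other member, Phgdh, so for 2 of 10 members (13.1% of tested genes). For Atf4 the Control libraries of the types were already apart, with 335 to 453 TPM in Type V. For Phgdh the Controls overlapped, at 351 to 441 TPM in Type D and 291 to 491 TPM in Type V.

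Atf3 rose to 100.2, 197 and 57.9 TPM in Type D lines (SE 0.56, adjusted p = 0.0381). The size of this change rested most on 4711-18, where it was 9.17-fold, against 1.5-fold in 4716-11. Without 4711-18 the difference was 1.17 (adjusted p = 0.458), without 4711-1 it was 1.86 (adjusted p = 0.210) and without 4716-11 it was 2.45 (adjusted p = 0.0579), so the call was lost each time. Atf3 in the Type V lines was at 60.8, 66.2 and 31.9 TPM, lower than Control in 4711-11 and higher in the other two lines.

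Ddit3 rose to 85.2, 199 and 58.9 TPM in Type D lines (SE 0.47, adjusted p = 0.0159), 2.63-fold to 5.34-fold above Control. The Type V Restored libraries held 64.3, 144 and 55.4 TPM of Ddit3, higher than Control in each line by 1.23-fold, 4.85-fold and 1.4-fold. The Type V difference was 1.00 (adjusted p = 0.219, and 0.0375 with the block, under which it was called). Chac1 rose to 94.8, 118 and 48.6 TPM in Type D lines (SE 0.51, adjusted p = 0.0338), 2.47-fold to 4.41-fold. The call of Ddit3 was lost without 4711-1 (1.87, adjusted p = 0.116) and without 4711-18 (1.49, adjusted p = 0.112), and that of Chac1 without any one Type D line (1.49 to 1.90, adjusted p = 0.103 to 0.260) or without the Type V line 4716-14 (adjusted p = 0.0683). With only the Control and Restored groups in the fit, the adjusted p was 0.0782 for Atf3, 0.0809 for Ddit3 and 0.0605 for Chac1. Type V lines had Chac1 at 70.5, 43.9 and 53.5 TPM, higher than Control in each line. The difference was 0.99 (adjusted p = 0.27 in limma, and 0.038 with the block, at a change just under 1).

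Trib3 showed the widest spread among lines. Type D Restored libraries held 115, 189.5 and 61.8 TPM, each above Control, and the difference of 1.97 (SE 0.96, adjusted p = 0.21) did not pass the test. Among Type V lines it went from 49.2 to 6.77 TPM in 4711-11, from 7.98 to 76.5 TPM in 4716-10 and from 7.10 to 4.97 TPM in 4716-14. The mean of these 3 changes, -0.01, describes none of them. Among Type V lines, 4716-10 was also the most above its Control for Atf4, Atf3, Ddit3 and Chac1, and 4711-11 the most below it for Atf4 and Atf3.

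Among the biosynthetic genes, Psat1 was lower in Restored than in Control in each line. The Type V Restored libraries held 109, 233 and 189.8 TPM against 722, 581 and 412 TPM in Control (adjusted p = 0.00622 in limma). Line 4711-11 was lowest against its Control, at 0.15 of that level, and without this line the difference was -1.22 (adjusted p = 0.135). With only the compared groups in the fit the adjusted p was 0.0789. Across Type D lines Psat1 was at 352, 207 and 157 TPM against 523, 462 and 409 TPM, a difference of -1.03 (adjusted p = 0.088, and 0.00996 with the block, under which it was called).

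For Phgdh the 95% interval of the difference between the types' responses to restoration, in the fit without the block, left out 0. Type D Restored libraries held 490.4, 743 and 325 TPM, higher than Control in 2 lines and slightly lower in 4716-11, while Type V ones held 185, 316 and 146 TPM, lower in each line by 0.64 to 1.33 on the log2 scale. The mean changes were 0.31 and -0.99 (adjusted p = 0.0644 in Type V lines, and 0.000121 with the block, at a change just under 1), and the difference between them was 1.30 (95% interval 0.32 to 2.27, adjusted p = 1 in limma). With cell line as a block its adjusted p was 0.00429, and Phgdh was then the 1 member called for a difference of responses (2.44% of tested genes). Without the block 0 members were called (0.0284% of genes). The fibroblast marker genes were detected in Type V lines, at a summed level of 184 to 457 TPM in Control and 27.4 to 184 TPM in Restored libraries, and were at most 1.93 TPM in Type D lines. Their part in this difference was not tested.

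The mitochondrial one-carbon genes were lower in Type V lines on average. Shmt2 was at 223, 258 and 141 TPM in restored Type D lines, with a difference of -0.14 from Control, and at 94.8, 163 and 79.4 TPM in Type V ones, with a difference of -1.25 (adjusted p = 0.0792, and 0.00216 with the block, under which it was called). Mthfd2 differed by 0.38 in Type D and -0.80 in Type V lines, and Asns by 0.35 and -0.45, none of them called with or without the block. The difference between the types' responses was 1.11 for Shmt2, 1.18 for Mthfd2 and 0.80 for Asns. In limma with the block the unadjusted p of these differences was 0.013, 0.021 and 0.10, and none was called (adjusted p = 0.110, 0.143 and 0.320). For these genes line 4716-11 was under its Control, and 4711-11 had the lowest value relative to Control of all 6 lines.

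The third comparison adds CsA to restored cells. All 10 members were higher in Restored + CsA than in Restored in each of the Type V lines, whereas in Type D lines the result hung on the line. None was called in Type D (0.0142% of genes called), Type V (0%) or the 6 lines together (0%). At an unadjusted p under 0.05 in limma stood 229 genes in Type D, 100 in Type V and 179 over the 6 lines. Psat1, over the 6 lines, was the only member among them. With cell line as a block the counts were 1771, 633 and 1570. These included Psat1, Phgdh and Shmt2 in Type D lines, and Asns and Mthfd2 in Type V lines. Over the 6 lines they included Chac1, Asns, Psat1, Phgdh, Shmt2 and Mthfd2. No member was called with the block either. This comparison shares its Restored libraries with that of restoration.

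Higher in 3 of 3 Type V lines were 10 of 10 members, against 12.7% of tested genes. Trib3 had the largest Type V difference, 1.37 (SE 0.96), going from 6.77, 76.5 and 4.97 TPM in Restored to 25.3, 124 and 18.0 TPM in Restored + CsA. Asns followed at 0.83 (SE 0.51), going from 175, 181 and 92.2 TPM to 319, 304 and 169.5 TPM, nearly the same fold in each line (1.68-fold to 1.84-fold). The other 8 members differed by 0.19 (Phgdh) to 0.70 (Mthfd2).

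**Figure D4:**
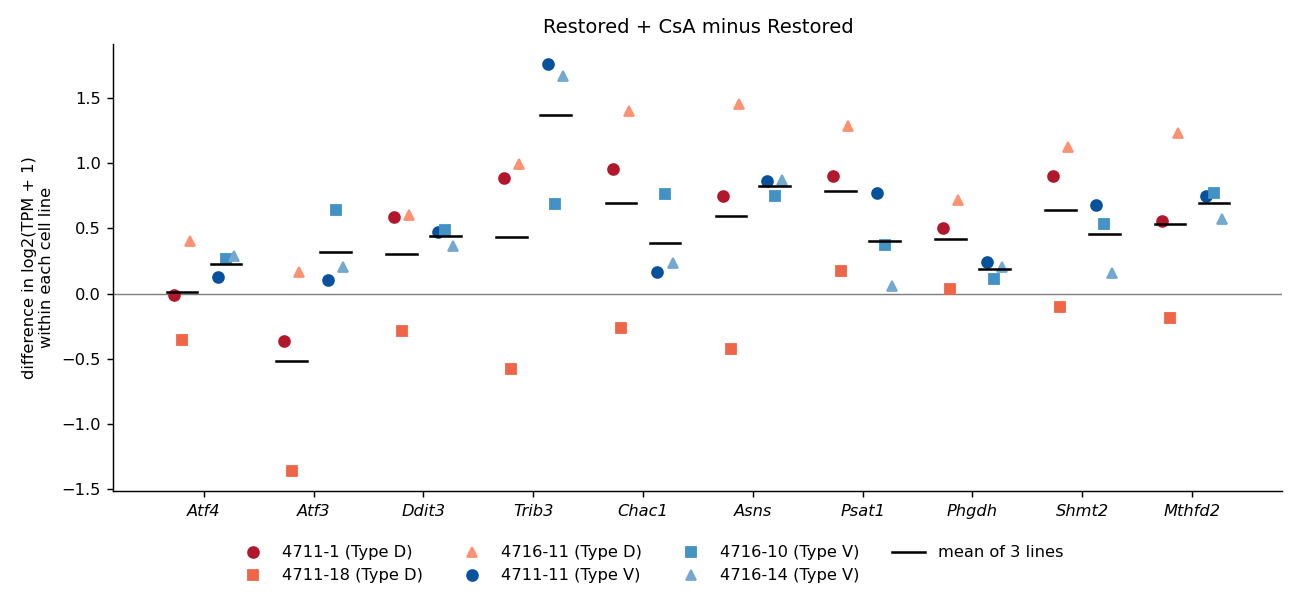
Difference in log2(TPM + 1) between Restored + CsA and Restored (vertical axis) for each gene (horizontal axis), with 1 point per cell line (red shades, Type D; blue shades, Type V) and a black bar at the mean of the 3 lines of a type. The Type D line 4711-18 lies under 0 for 8 genes, down to -1.36 for Atf3, while all Type V points lie above 0.

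Among Type D lines 4716-11 was higher for all 10 members, by 0.17 (Atf3) to 1.46 (Asns), and 4711-1 for 8. Line 4711-18 was lower for 8 of 10 and higher by 0.17 for Psat1 and 0.03 for Phgdh. Its Restored library already had the highest Atf3 of the 24 and the highest Ddit3 and Trib3 of the 6 Restored libraries. Over the 6 lines Psat1 and Phgdh were higher in 6 of 6 (3.8% of tested genes). Without 4711-18 this count was 8 members, so the count rests on that line. Whether the response to CsA differed with p53 restored and with p53 off was tested over the 6 lines as an interaction, and 0 members were called (0% of genes). At an unadjusted p under 0.05 stood 45 genes, none of them a member. The interaction was -0.59 for Chac1 and between -0.54 and 0.23 for the other 9.

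Restoration was also compared with CsA in both arms. In Type D lines 0 members were called (5.41% of tested genes), and 1 with the block, Ddit3 (9.69%), from 48.3, 79.0 and 32.3 TPM in Control + CsA to 129, 163 and 89.7 TPM in Restored + CsA (1.29, SE 0.47, adjusted p = 0.101, 0.0097 with the block). Chac1, called without CsA, differed by 0.39 here, with 73.2 to 122 TPM in Control + CsA and 98.1 to 184 TPM in Restored + CsA. Psat1 was again called in Type V lines and fell by 1.39 on the log2 scale (SE 0.38, adjusted p = 0.0297), the 1 member against 4.61% of genes. With the block 3 were called, Psat1, Ddit3 and Chac1 (7.97%). Whether restoration differed with and without CsA is the same interaction, taken over the lines of both types together, in which no member was called. It was not tested within Type D or within Type V lines, and a mean over both types can cancel opposite shifts. For Trib3 the change with restoration was 1.965 without CsA and 0.64 with it in Type D lines. In Type V lines these Trib3 changes were -0.01 and 1.27 (SE 0.96 for each of the 4), and the interaction was -0.03.

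The members varied together to different degrees. After each line's own mean was removed, pairs of members had Pearson correlations over the 24 libraries from -0.52 (Ddit3 with Psat1) to 0.95 (Asns with Mthfd2), with a median of 0.62 over 45 pairs. Atf4 went closest with Trib3 (0.94) and Chac1 (0.90), Atf3 with Ddit3 (0.85), and Psat1 with Shmt2 (0.92). Against the mean of the other 9 members, r was highest for Atf4 and Trib3 (0.88 each) and lowest for Psat1 (0.12). These libraries share 6 lines and 4 treatments, so the correlations describe them and carry no test.

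The 10 genes outside the list whose line-centred values went closest with the members' mean over the 24 libraries were Sars (r = 0.974), Gadd45a (0.963), Eif4ebp1 (0.961), Aars (0.960), Slc6a9 (0.928), Gars (0.912), Hspa9 (0.907), Cebpg (0.897), Slc7a11 (0.896) and Xpot (0.889). Sars, Aars and Gars charge tRNAs with serine, alanine and glycine, Xpot exports tRNA from the nucleus, and Slc6a9 and Slc7a11 carry glycine and cystine. Gadd45a, a growth arrest gene that also responds to p53, measured 20.2, 30.9 and 28.5 TPM in the Type D lines as Control, and 78.5, 87.9 and 59.5 TPM with CsA (1.47 on the log2 scale, SE 0.68, adjusted p = 1 in limma).

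Beside the members, 83 other genes of the pathway in 9 lists, all of them tested, are described by their counts. With CsA alone in Type D lines 0 genes of any list were called, and the medians differed by role. The upstream kinases lay at -0.10 (1 of 4 higher; Eif2ak2 -0.19, Eif2ak1 -0.13), eIF2 and eIF2B subunits at -0.04 (3 of 8 higher; Eif2s2 0.29, Eif2s1 -0.16) and the regulatory subunits of the eIF2alpha phosphatase at -0.12 (1 of 2 higher; Ppp1r15b -0.35, Ppp1r15a 0.11), against -0.03 over all tested genes. Downstream, the partner factors and regulators lay at 0.74 (8 of 8 higher; Atf5 1.91, Sesn2 1.15), amino acid transporters at 0.48 (9 of 9; Slc7a11 0.98, Slc7a5 0.87), aminoacyl-tRNA synthetases at 0.44 (17 of 18; Sars 0.66, Nars 0.64) and other genes of amino acid synthesis at 0.32 (9 of 13; Cth 2.11, Aldh1l2 2.02). Secreted and surface targets had a median of 0.59 (5 of 5; Fgf21 1.90, Stc2 0.66). Chaperones and XBP1 targets of the endoplasmic reticulum lay at 0.17 (11 of 16; Herpud1 0.66, Xbp1 0.52).

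**Figure D5:**
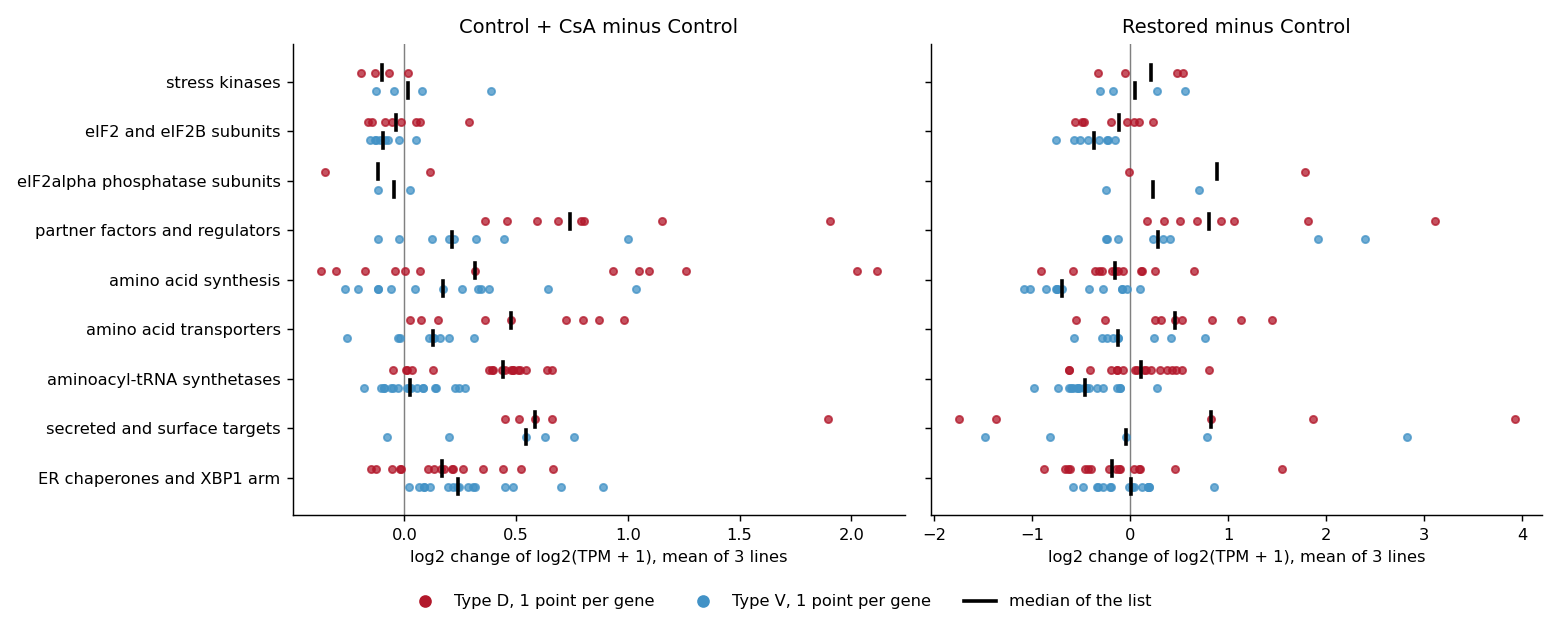
Log2 change (horizontal axes; mean of 3 lines) of each gene of the 9 further lists (vertical axis), for Control + CsA minus Control (left) and Restored minus Control (right), with 1 point per gene in red for Type D and in blue for Type V lines and a black bar at the median of the list. With CsA, the Type D medians lie between -0.12 for the eIF2alpha phosphatase subunits and 0.74 for partner factors and regulators.

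The same lists had smaller medians in Type V lines with CsA for partner factors (0.21, 6 of 8 higher; Atf5 1.00, Jdp2 0.45), transporters (0.13, 6 of 9; Slc6a9 0.31, Slc7a3 -0.26), tRNA synthetases (0.02, 11 of 18; Sars 0.27, Nars 0.24) and amino acid synthesis (0.17, 8 of 13; Aldh1l2 1.04, Pycr1 0.64), and a larger one for the reticulum chaperones (0.24, 16 of 16; Dnajb9 0.89, Xbp1 0.70). The kinases lay at 0.01 (Eif2ak3 0.39, Eif2ak1 -0.13), eIF2 and eIF2B subunits at -0.10 (Eif2b5 -0.15, Eif2s1 -0.13), the phosphatase subunits at -0.05 (Ppp1r15b -0.12, Ppp1r15a 0.03) and secreted targets at 0.54 (Gdf15 0.76, Fgf21 0.63). None of these differences between types was called.

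A single gene of the lists was called for CsA alone in Type D lines once cell line was a block. Atf5, a bZIP factor related to ATF4 that takes part in the mitochondrial stress response, measured 60.5, 123 and 62.4 TPM in the Type D lines as Control, and 290.5, 429.9 and 203 TPM with CsA (1.91, SE 0.41, adjusted p = 1 in limma, 0.037 with the block). Type V lines held 121, 73.8 and 63.2 TPM as Control and 311, 119 and 125 TPM with CsA (1.00). It was thus higher in 6 of 6 lines, and over the 6 lines it was called with the block (1.45, adjusted p = 0.00935), as was Fgf21 (1.26, adjusted p = 0.0395 with the block). Over all tested genes 2 (0.0142%) were called with the block in Type D lines and 2 (0.0142%) over the 6 lines. Atf5 and Fgf21 were thus the only genes called over the 6 lines.

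Restoration called other genes of these lists. Those called without the block are all named next, out of 83 genes. Over all tested genes the shares called were 6.93% in Type D and 5.29% in Type V lines. In Type D lines Sesn2, a stress-induced inhibitor of mTORC1 and a known p53 target, rose by 3.11 (adjusted p = 5.58e-06), Ddit4 by 1.81, Ppp1r15a by 1.79, Gdf15 by 3.92, Vegfa by 1.86 and Dnajb9 by 1.54, while Fgf21 fell by 1.37. Of these, Sesn2 (2.39), Ddit4 (1.91) and Gdf15 (2.82) were called in Type V lines too. The others were not called there but had mean changes in the same direction. These were 0.70 for Ppp1r15a, 0.85 for Dnajb9 and -0.82 for Fgf21, and Vegfa went from a mean of 54.5 to 103.7 TPM. The tRNA synthetases had medians of 0.11 in Type D (11 of 18 higher; Cars 0.80, Vars -0.63) and -0.47 in Type V lines (1 of 18 higher; Vars -0.98, Kars -0.74), and other genes of amino acid synthesis -0.16 (4 of 13 higher; Shmt1 -0.91, Cth 0.65) and -0.70 (1 of 13 higher; Cth -1.09, Aldh1l2 -1.03), against medians of 0.07 and 0.05 over all tested genes. None of these was called. Transporters lay at 0.46 (Slc7a11 1.44, Slc3a2 1.12) and -0.13 (Slc7a3 0.77, Slc7a5 -0.57), and Slc3a2 was called in Type D lines with the block (adjusted p = 0.00221). Partner factors and regulators lay at 0.80 (8 of 8 higher) and 0.28 (5 of 8), phosphatase subunits at 0.89 and 0.23, and secreted targets at 0.82 (3 of 5) and -0.04 (2 of 5). With the block Atf5 was called in Type D lines (1.06, adjusted p = 0.00474) and Stc2 in both types, lower (-1.75 and -1.48). The kinases lay at 0.21 (Eif2ak3 0.54, Eif2ak2 0.47) and 0.04 (Eif2ak3 0.56, Eif2ak1 -0.31), eIF2 and eIF2B subunits at -0.12 (Eif2b1 -0.56, Eif2b5 -0.49) and -0.37 (Eif2b4 -0.76, Eif2b1 -0.58), and the reticulum chaperones at -0.18 and 0.0028 (Dnajb9 0.85, Hyou1 -0.58 in Type V lines). With restoration, too, the differences between types were not called for any gene of these lists.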

How the data were processed

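Poly(A) RNA of 6 lines under 4 treatments (24 libraries, strand-specific mRNA kit) was sequenced. The deposited values are TPM, computed by the authors; the methods name kallisto or HISAT2 for alignment without saying which gave this table. They give 2 build names that do not match, mm10 and GRCm39, so no gene coordinate is taken from it. Promoter windows are from RefSeq (GRCm38.p6). How reads shared by related genes or pseudogenes were split is not given in the sources used here. No columns were left out.

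TPM values were taken as log2(TPM + 1) and genes that reached 1 TPM in 3 or more libraries (14104 of 25239) were fitted in limma 3.58.1 (R 4.3.3) with 8 groups and all 24 libraries, and empirical Bayes moderation with a trend. The 14 comparisons were adjusted over all tested genes by Benjamini-Hochberg. A gene was called at an adjusted p under 0.05 and a log2 change of at least 1. A log2 change on this scale understates the change of low genes. The fit was tested on simulated data in which libraries were independent, with no effect of cell line. That test therefore does not cover the pairing of libraries by line. Figures were drawn with matplotlib 3.10.9 (Python 3.11.15).

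Libraries of the same cell line pair the samples: after group means were removed, same-line libraries correlated with r of 0.599 to 0.929 (36 pairs), pairs from different lines with -0.727 to 0.0438 (96 pairs within a type). Removing the mean of 3 libraries by itself pushes pairs from different lines below 0, so only the same-line values bear on the pairing. The alternative fit therefore used cell line as a replicate block. No 2 libraries held identical values. Each line gave 1 library per treatment, so p-values measure the spread between lines, each with 1 library. Other alternatives were another pseudocount (0.1), other filters on low values (none, or 5 TPM), quantile normalization, median-ratio scaling, only the compared groups, a call by adjusted p alone and each line left out.

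The members and gene lists were chosen with earlier results of these data known. Named beside all 10 members were genes of the lists that were called or, where none was, the 2 with the largest change, and the 10 genes most correlated with the members' mean.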

Additional observations from a re-analysis of the deposited data

Results flagged for a closer look

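For 30 combinations of member and comparison (CsA alone, restoration, CsA on restored cells), the 6 lines' differences were checked for a line that stands apart by Dixon's criterion for 6 values; chance flags about 1 in 20. Ddit3 changed by -0.28 with CsA on restored cells in line 4711-18, while the nearest line stood at 0.37 and the gap was 0.737 of the range. Psat1 changed by -2.72 with restoration in line 4711-11, with the nearest line at -1.38 and a gap of 0.626 of the range. With restoration Phgdh differed between the types by 1.30 on the log2 scale, a difference that passed the test with cell line as a block (adjusted p = 0.00429 in limma) and not without it (adjusted p = 1). It was 1.08 to 1.51 when each line was left out without the block.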

How the results depend on the processing

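With cell line as a replicate block, members called went from 3 to 4 in Type D and from 1 to 3 in Type V lines for restoration, from 0 to 1 in Type D and from 1 to 3 in Type V lines for restoration under CsA, and from 0 to 1 for the difference of restoration between types, and the block changed no other count of members called. Over all genes the calls went from 977 to 1582 (Type D restoration), 746 to 1222 (Type V restoration), 763 to 1366 and 650 to 1124 (the same under CsA), 4 to 344 (types, restoration) and 2 to 18 (CsA on restored Type D cells). By adjusted p alone they were 1815, 1403, 1254 and 1087 for the first 4 of these. With no filter on low values 1 member was called for Type D restoration and 0 for Type V restoration under CsA. With only the compared groups in the fit 0 members were called for restoration in Type D, in Type V and in Type V under CsA, while calls over all genes were 291 for Type V restoration, 276 for it under CsA and 631 between types in Control. Without Type D replicate 1 the last was 800. Leaving out each line in turn gave 0 to 3 members called for Type D restoration, 0 to 2 for Type V restoration, 0 to 1 and 0 to 2 for the same under CsA, and 601 calls over all genes for Type D restoration without 4711-18 and 452 under CsA without 4716-11. Members of 1 direction in all remaining lines numbered 4 to 6 (CsA alone, higher), 2 to 4 and 1 to 2 (restoration, higher and lower), 2 to 8 (CsA on restored cells, higher) and 1 to 2 (restoration under CsA, higher). Some uncalled differences changed sign when a line was left out, with ranges of -0.31 to 0.038 for Shmt2 with Type D restoration, -0.039 to 0.48 for Atf4, -1.56 to 1.33 for Trib3 (0.21 without 4716-14) and -0.86 to 0.014 for Asns with Type V restoration, -0.024 to 0.38 for Atf3 between types with CsA alone, and -0.27 to 0.11 for Atf3 with CsA on restored cells over the 6 lines. A pseudocount of 0.1, the filter at 5 TPM and median-ratio scaling left each of 100 results on its side of the threshold and in its direction. Under quantile normalization 99 of 100 were so, all but Atf3 with Type D restoration (adjusted p = 0.0549 in limma). The cause was not tested. TPM holds no depth, so its limits are unknown.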

Other observations

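Fgf21, the gene of a secreted stress hormone, was low in all libraries. With p53 off it was higher with CsA in 6 of 6 lines, and with restoration it was higher in 0 of 6. Type V means were 1.09 TPM in Control, 2.59 TPM in Control + CsA, 0.098 TPM in Restored and 0.31 TPM in Restored + CsA. Its Type D values, in lines 4711-1, 4711-18 and 4716-11, were 0.924, 2.03 and 2.65 TPM in Control, 8.11, 9.37 and 10.6 TPM in Control + CsA, and 0, 0 and 0.236 TPM in Restored libraries. With CsA on restored cells they were 0.285, 0 and 0.473 TPM, while Atf5 was at 379, 252 and 288 TPM in the same libraries. With CsA in both arms, restoration went with a fall of Fgf21 in Type D lines (-3.06 on the log2 scale, SE 0.41, adjusted p = 4.89e-05 in limma). The Type V difference was -1.19 (SE 0.41, adjusted p = 0.0855 in limma, 0.0060 with cell line as a block). These values were picked out after they were seen.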
